A study of Larimichthys crocea with 4 samples.

Results

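The liver library from large yellow croakers (Larimichthys crocea) fasted for 21 days was set against 3 other liver libraries as 1 side, those of fish under normal feeding, cold stress and thermal stress. A gene was of interest when its fasting CPM (its fragments per 1000000 fragments counted in that library) lay outside the range spanned by the 3 others. Genes were taken as KEGG orthology numbers, each the sum of all assembled transcripts (unigenes) with that number, and also as single unigenes. Of 5468 numbers in the files, 5146 had a mean of at least 10 fragments over the 4 libraries, and 820 of these lay outside the range by 2-fold or more relative to the nearest of the 3 libraries. Of 57216 unigenes, 34406 passed the same minimum and 5829 lay outside by 2-fold or more. Which genes lie outside was fixed by this rule, so their distances are descriptions and carry no test.

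With 1 library per condition, replicate error could not be measured. The fasting and normal feeding libraries were each pooled from 6 net-cage farmed fish. The cold stress and thermal stress fish were treated for 12 h, and whether they were fed is not stated. The sources used here give neither sex nor maturity for any of the fish. Because the 3 libraries differ in treatment, their range holds the effects of temperature stress as well as differences between pools of fish. A value outside it is one that neither feeding nor either short stress reached in these libraries.

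Fasting draws the liver from storing fuel to releasing it. Glycogen and fat are broken down, amino acids give carbon for new glucose, and the synthesis of fat and cholesterol normally slows. The liver also makes most plasma proteins, which pass through the endoplasmic reticulum (ER), and in mature female fish estrogen makes it produce yolk precursors (vitellogenins) and egg envelope proteins. In many bony fishes exocrine pancreas tissue lies in or around the liver.

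The libraries held 19.5 M counted fragments (1 M is 1000000) for fasting, against 17.5 M for normal feeding, 17.0 M for cold stress and 17.9 M for thermal stress. A count of 0 allows up to 3 fragments, or 0.154 CPM in the fasting library and 0.167 to 0.176 in the others. The fasting library stood apart in several ways. Digestive enzymes of pancreatic type held 10.4% of its fragments, against 4.17% to 5.88% in the others, and vitellogenin and egg envelope unigenes held 1.46%, against 0.00153% to 0.0247%. Reads that fitted several places made up 50.97% of its placed reads, against 56.2% to 60.05%. Transcripts of liver were present in all 4 libraries: apolipoprotein B, the core protein of liver lipoproteins, had 11184 CPM in the fasting library, against 11337 under normal feeding, 9307 under cold stress and 7633 under thermal stress. Hemoglobin chains summed to 477 in the fasting library, against 371 to 704 in the others.

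The fasting library was more often below the range than above it. Of the 5146 numbers, 1201 (23.3%) lay above the 3 others at any distance, 2219 (43.1%) lay below and 1726 lay inside. By 2-fold or more, 266 (5.17%) lay above and 554 (10.8%) below, and by 4-fold or more 52 lay above and 124 below. The 266 numbers took 19.3% of all fragments in the fasting library, against 5.597% under normal feeding, 5.77% under cold stress and 6.03% under thermal stress. The 554 held 2.04% in the fasting library, against 15.9%, 15.8% and 17.2% in the same order of the others. For 200 of the 266 and 416 of the 554, the distance to the nearest library exceeded the whole spread of the 3 others. Their choice at 2-fold or more favored this. The median spread of the 3 others was 0.88 on the log2 scale for the 266 and 0.86 for the 554. The same count over all 5146 numbers was not made. Close to the 2-fold limit among the listed genes, 4-hydroxyphenylpyruvate dioxygenase counted as below at 2.01-fold, with 142 CPM in the fasting library, against 286 under normal feeding, 298 under cold stress and 477 under thermal stress. The beta subunit of electron transfer flavoprotein did not count as above at 1.98-fold, with 243 in the fasting library, against 109, 123 and 97.1.

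This split between above and below depended on how libraries were scaled. With library totals, the median log2 ratio of fasting over the median of the 3 others was -0.28 over all numbers. With edgeR's TMM sizes it was -0.03, and 383 numbers lay above and 394 below by 2-fold or more, so that 49.3% of them were above instead of 32.4%. TMM moved each fasting value up by 0.23 on the log2 scale against normal feeding, 0.43 against cold stress and 0.11 against thermal stress. At any distance, 1641 lay above with TMM and 1725 below. A set of 112 numbers was picked by distance, not all of them described here, and all kept their side of the range under TMM. This was fixed in advance, because they were chosen at 2-fold or more outside, farther than any of these shifts. Of the 112, 102 stayed 2-fold or more outside. Genes described with short distances could change place: HMG-CoA reductase and GRP78 lay below the range with library totals and inside it with TMM, and apolipoprotein B, plasminogen, carnitine palmitoyltransferase 1, autophagy proteins 5 and 7 and ribosomal protein S29 lay inside it with library totals and above it with TMM. Single unigenes gave much the same shares, with 1774 (5.16%) above and 4055 (11.8%) below by 2-fold or more, and with TMM 2572 above and 3025 below.

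With library totals, the fasting library was also the one farthest from the rest in pairs. It differed by 2-fold or more in 1621 numbers (31.5%) from normal feeding, 2418 (47.0%) from cold stress and 1721 (33.4%) from thermal stress. The 3 others differed among themselves in 911 (17.7%) to 1541 numbers (29.95%), the last close to the count between fasting and normal feeding. The pairs were not counted with TMM sizes. The nearest library to the fasting value was normal feeding for 118 of the 266 numbers above and 243 of the 554 below. Thermal stress was nearest for 92 above and 205 below, and cold stress for 56 above and 106 below.

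Whether the fasting library departed by more than the 3 others vary was tested with edgeR's quasi-likelihood test, which took the spread from the 3 non-fasting libraries and assumed that the lone fasting library varies like them. At a Benjamini-Hochberg adjusted p under 0.05 it called 4 numbers higher (0.0777%) and 2 lower (0.0389%), while 810 (15.7%) had an unadjusted p under 0.05, of which 309 were higher. The count of calls was 42 without the normal feeding library, 51 without the cold stress library, 21 without the thermal stress library and 326 with DESeq2. Of single unigenes, it called 4 higher (0.0116%) and 1 lower (0.00291%), with 3224 at an unadjusted p under 0.05. The unigene calls came to 170 without normal feeding, 457 without cold stress and 351 without thermal stress.

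The largest departure was that of egg proteins. The 7 vitellogenin unigenes had 131975 fragments in the fasting library, against 8 under normal feeding, 1 under cold stress and 8 under thermal stress. All 7 passed the minimum of fragments only through the fasting library, so their place above the range was fixed by that minimum. Vitellogenins are lipid-rich yolk precursors that the liver secretes into the blood. Unigene40354 (vitellogenin Ab) had 44708 fragments in the fasting library, against 1 under normal feeding, 1 under cold stress and 0 under thermal stress. Unigene40353 had 37041 fragments in the fasting library, against 4 under normal feeding and 0 in both stress libraries. CL2016.Contig1 (vitellogenin C) had 8132 fragments in the fasting library, against 0, 0 and 6 under normal feeding, cold stress and thermal stress. The fasting library thus stood alone for these transcripts, and every one of the 7 was assembled from contigs of the fasting library only. Reads fitting several places made up 81.1% of those on CL1253.Contig1 and 63.3% on CL2016.Contig1, but 0% on Unigene40354 and Unigene40353. The unigenes that edgeR called higher were all vitellogenins. Their edgeR log2 fold changes were 15.629 for Unigene40354, 14.007 for CL1253.Contig1, 14.506 for Unigene42537 and 14.476 for Unigene40353. Since they met the minimum only through their fasting fragments, these calls cannot count as a test of whether the fasting library was higher.

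Egg envelope transcripts were also above the range, but here the thermal stress library came second. Choriogenin, chorion protein and zona pellucida protein form the egg coat, and all 5 of their unigenes that were tested lay above the range. With 4 others too rare to be tested, they had 153764 fragments in the fasting library, against 777 under normal feeding, 260 under cold stress and 4408 under thermal stress. Of the 5, Unigene41306 and Unigene41807 passed the minimum of fragments only through the fasting library, which fixed their place above the range. Unigene1132 (chorion protein) had 4162 CPM in the fasting library, against 34.6 under normal feeding, 12.0 under cold stress and 133 under thermal stress. It was 31.3-fold above thermal stress (95% exact interval 30.03 to 32.6, which covers counting error only, as do all intervals here). Unigene16930 (zona pellucida protein Ba) was 13.8-fold above thermal stress (13.1 to 14.5). Unigene41807 (choriogenin H) had 4815 fragments in the fasting library and 0 in each other library, at least 1399-fold higher against a limit of 3 fragments per library.

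The hormone receptor side looked different. Estrogen receptor alpha, through which estrogen induces vitellogenin, had 38.8 CPM in the fasting library, against 1.60 under normal feeding, 0.999 under cold stress and 71.3 under thermal stress. The fasting value was 24.3-fold that of normal feeding but lay inside the range, below thermal stress. Unigene12529 (estrogen receptor beta, chosen after its values were seen) had 40 fragments in the fasting library, against 19, 11 and 8 in the others, and was above the range by 1.89-fold (1.07 to 3.45). Since the sex and maturity of the pooled fish are not given, a difference in the females pooled and the fast cannot be told apart for the egg proteins.

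Because annotation by similarity placed egg proteins under numbers of other names, 3 of the numbers farthest above carry misleading definitions. K06085, defined as a synovial sarcoma X breakpoint 2 interacting protein, holds vitellogenin unigenes. It had 4614 CPM in the fasting library, against 2.34, 6.52 and 3.52 under normal feeding, cold stress and thermal stress, an edgeR log2 fold change of 10.13. All vitellogenin unigenes together had 0.457, 0.0588 and 0.447 CPM in those 3 libraries. The non-fasting values of this number thus came mostly from other unigenes. K03900, defined as von Willebrand factor, holds vitellogenin too and had 1067 in the fasting library, against 16.1, 16.04 and 10.9, a log2 fold change of 6.22. Its vitellogenin, Unigene42537, had 1049 in the fasting library, against 0.114, 0 and 0. K14972, defined as PAX-interacting protein 1, holds choriogenin and had 2477 in the fasting library, against 102, 131 and 203 (edgeR log2 fold change 4.09). The test called these 3 numbers with library totals, but the last of them was no longer called with TMM. For K06085 and K03900 it set vitellogenin fragments against a spread that came mostly from other unigenes. Their calls thus cannot count as a test of vitellogenin.

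**Figure D1:**
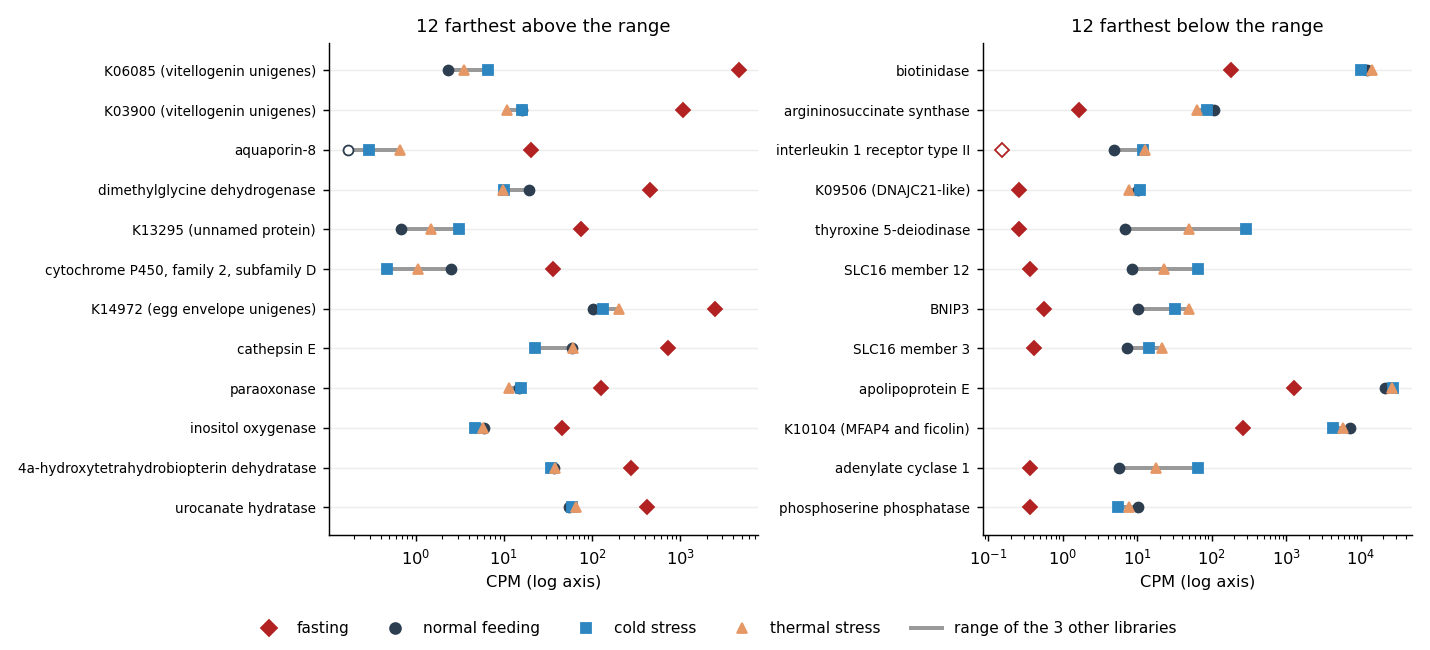
CPM (log axis) for the 12 KEGG orthology numbers farthest above (left) and the 12 farthest below (right) the range among those with a mean of at least 100 fragments. Diamonds mark fasting, circles normal feeding, squares cold stress and triangles thermal stress, the grey line spans the 3 others, and open symbols stand at the level of 3 fragments; each fasting diamond stands clear of the line, from 4614 against at most 6.52 for K06085 to 181 against at least 10190 for biotinidase.

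**Figure D2:**
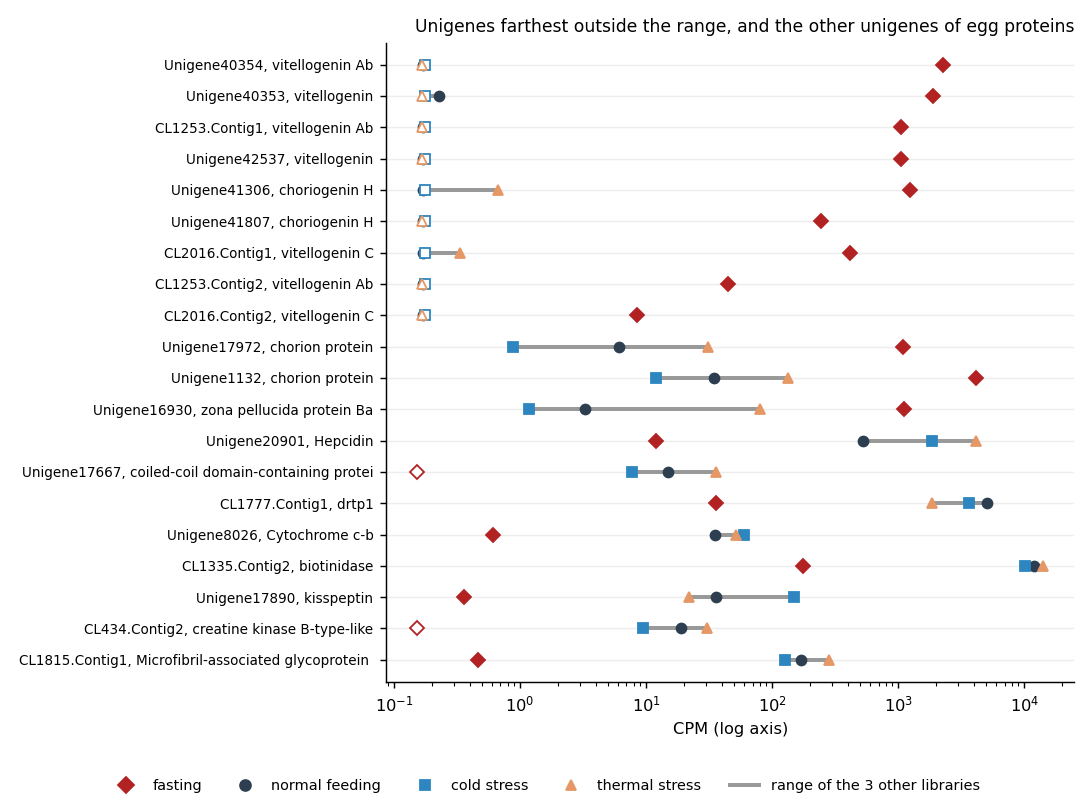
CPM (log axis) for the 8 unigenes farthest above and the 8 farthest below the range, with the other egg protein unigenes, labelled by unigene and best protein hit. Symbols are as for the numbers, with open symbols at the level of 3 fragments; the 7 vitellogenins have fasting values with nearly nothing in the others, whereas the chorion and zona pellucida transcripts have their second highest value under thermal stress.

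Apart from egg proteins, the numbers farthest above were enzymes of several kinds, a water channel and an unnamed protein. Dimethylglycine dehydrogenase, a mitochondrial enzyme that passes a 1-carbon unit from choline breakdown to folate, had 456 CPM in the fasting library, against 18.98 under normal feeding, 10.1 under cold stress and 9.82 under thermal stress. It was 24.0-fold above the nearest library (21.5 to 26.9) and was called by edgeR, with a log2 fold change of 5.14 (SE 0.52, adjusted p = 0.0351, 1.25e-14 to 0.0353 over the alternatives). Aquaporin-8, a water channel, had 20.2 in the fasting library, against 0.114, 0.294 and 0.670 under normal feeding, cold stress and thermal stress, 30.1-fold above thermal stress (17.1 to 58.8). Its level was low in every library but the fasting one. It passed the minimum of fragments only through the fasting library, which fixed its place above the range. A cytochrome P450 of the number for family 2, subfamily D, had 36.4 in the fasting library, against 2.52 at the most in the others.

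A protease and small-molecule enzymes were also among them. Cathepsin E, led here by an aspartic protease, had 719 CPM in the fasting library, against 58.6 under normal feeding, 22.3 under cold stress and 61.0 under thermal stress, 11.8-fold above thermal stress (11.1 to 12.6). Paraoxonase, a serum esterase, had 126 in the fasting library, against 14.8, 15.8 and 11.38. Inositol oxygenase, which opens the inositol ring, had 45.7 in the fasting library, against 5.89, 4.70 and 5.86, but up to 99% of the reads on its unigenes fitted several places in a library. In each of these the fasting library lay far above the other 3. K13295, whose leading unigene has no named protein hit, had 73.9 in the fasting library, against 3.11 at the most.

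Amino acid breakdown lay on both sides of the range within 1 list. Of 45 numbers tested, 6 lay above by 2-fold or more and 7 below (8 and 4 with TMM), against 5.17% and 10.8% of all numbers, and the median log2 ratio of the list was -0.27, against -0.28 over all numbers. Those above included the methyl cycle and histidine breakdown. Urocanate hydratase, of histidine breakdown, had 422 CPM in the fasting library, against 55.2 under normal feeding, 59.2 under cold stress and 66.2 under thermal stress, 6.37-fold above the nearest (5.996 to 6.78). Adenosylhomocysteinase, which clears the product of methylation reactions, had 1294 in the fasting library, against 166, 193 and 228. Betaine-homocysteine S-methyltransferase, which remakes methionine, had 1220 in the fasting library, against 249, 297 and 213, with up to 92.6% of reads fitting several places. Glutamate dehydrogenase, which releases ammonia from glutamate, had 969 in the fasting library, against 359, 276 and 416.

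The other side of the list included enzymes of proline, cysteine and phenylalanine. Proline dehydrogenase, the first step of proline oxidation, had 15.7 CPM in the fasting library, against 243 under normal feeding, 513 under cold stress and 296 under thermal stress, 15.5-fold below normal feeding (13.8 to 17.4). Its partner in the next step, 1-pyrroline-5-carboxylate dehydrogenase, lay on the other side, with 242 in the fasting library, against 99.98, 89.0 and 101. Cysteine dioxygenase, which starts cysteine oxidation, had 29.9 in the fasting library, against 269, 760 and 961. Cystathionine beta-synthase also lay below the range, at a log2 distance of -1.758 (-1.531 with TMM). Phenylalanine-4-hydroxylase had 198 in the fasting library, against 1305, 909 and 656, although 4a-hydroxytetrahydrobiopterin dehydratase, which recycles its cofactor, was 7.30-fold above the range, with 277 against 37.4, 33.8 and 38.0. Glycine cleavage system H protein and 4-hydroxyphenylpyruvate dioxygenase were below by 2.09-fold and 2.01-fold and came within 2-fold with TMM, as did a number defined as a 2-oxoisovalerate dehydrogenase subunit whose fragments came mostly (88.4%) from a transcript of brain protein I3.

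Formyltetrahydrofolate dehydrogenase, which oxidizes the 1-carbon unit on folate, had 1823 CPM in the fasting library, against 176 under normal feeding, 278 under cold stress and 307 under thermal stress. Aminomethyltransferase, the T protein of glycine cleavage, had 52.8 in the fasting library, against 7.66, 8.34 and 5.47. Both were picked after their values were seen, as the next by distance. Phosphoserine phosphatase, the last step of serine synthesis, was far below the range, with 0.358 in the fasting library, against 10.1, 5.58 and 7.70.

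Urea cycle transcripts were among those farthest below. Argininosuccinate synthase, which joins citrulline and aspartate, had 1.64 CPM in the fasting library, against 108 under normal feeding, 85.8 under cold stress and 63.0 under thermal stress, 38.5-fold below thermal stress (27.1 to 56.5). Ornithine carbamoyltransferase, the step before it, had 2.10 in the fasting library, against 63.3, 84.6 and 18.0, 8.56-fold below (6.17 to 12.2). The list of urea and nitrogen had 11 numbers, none of them inside the range with library totals, against 33.5% of all numbers. With TMM, 5 of the 11 lay above the range and 4 below at any distance, and the rest inside. By 2-fold or more, 2 lay below and 2 above (2 and 3 with TMM), against 10.8% and 5.17% of all numbers. Those above were uric acid breakdown enzymes, allantoicase with 28.1 in the fasting library, against 12.5 at the most, and 5-hydroxyisourate hydrolase with 180, against 80.3 at the most.

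Among KEGG orthology numbers with a mean of at least 100 fragments, biotinidase gave the longest distance below the range. This enzyme, which frees biotin from protein, had 181 CPM in the fasting library, against 11956 under normal feeding, 10190 under cold stress and 14148 under thermal stress. The fasting value was 56.3-fold below cold stress (54.5 to 58.2), and edgeR gave a log2 fold change of -6.06 (SE 0.47, adjusted p = 0.011, 4.28e-21 to 0.0566 over the alternatives). Nearly all of it came from CL1335.Contig2, with 3459 fragments in the fasting library, against 208860, 173203 and 253258. This was an abundant transcript in the 3 others and a minor one in the fasting library. Apolipoprotein E, a lipoprotein component that binds the low-density lipoprotein receptor, had 1276 in the fasting library, against 21127, 27000 and 26062, 16.6-fold below normal feeding (16.4 to 16.8; edgeR log2 fold change -4.28, SE 0.38, adjusted p = 0.0209, 1.24e-11 to 0.0788). With TMM the test called neither of these 2 numbers.

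Low-abundance transcripts below the range included hormone and transport genes. Thyroxine 5-deiodinase, which inactivates thyroid hormone, had 0.256 CPM in the fasting library, against 6.80 under normal feeding, 287 under cold stress and 49.1 under thermal stress. Interleukin 1 receptor type II, a decoy receptor, had 0 fragments in the fasting library, against 4.80, 12.0 and 12.7 CPM in the others, at least 31.3-fold lower. BNIP3, a mitochondrial protein of autophagy and cell death, had 0.563 in the fasting library, against 10.2, 31.9 and 49.5. For each of these genes normal feeding was the nearest library and both stress libraries were higher still. Members of the SLC16 family, defined as monocarboxylic acid transporters, were also below the range. SLC16 member 12 had 0.358 in the fasting library, against 8.46 at the least, and SLC16 member 3 had 0.410, against 7.32 at the least. Adenylate cyclase 1 had 0.358 in the fasting library, against 5.60, 65.8 and 17.6.

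Single unigenes below the range added genes that carry no number or share one. CL1815.Contig1 (microfibril-associated glycoprotein 4) had 9 fragments in the fasting library, against 2987 under normal feeding, 2165 under cold stress and 5065 under thermal stress, but up to 97.0% of its reads fitted several places. CL434.Contig2 (creatine kinase B) had 0 fragments in the fasting library, against 334, 162 and 543. Unigene8026 (cytochrome c-b, an electron carrier) had 12 in the fasting library, against 617, 1021 and 933. CL1777.Contig1, whose best hit is drtp1 of this species, had 702 in the fasting library, against 88198, 61610 and 33353. These 4 fasting counts lay below the lowest of the others by 51.8-fold or more.

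A kisspeptin transcript, Unigene17890, had 7 fragments in the fasting library, against 628 under normal feeding, 2561 under cold stress and 392 under thermal stress, 61.0-fold below thermal stress (29.4 to 153). Kisspeptins are neuropeptides known for starting puberty. A different unigene with a kisspeptin hit, Unigene13971, lay inside the range, with 78 fragments in the fasting library, against 49, 69 and 61. Unigene17667, similar to coiled-coil domain-containing protein 37, had 1 fragment in the fasting library, against 262, 133 and 642. Unigene17890 and Unigene17667 were assembled without contigs of the fasting library, as were CL1815.Contig1 and CL434.Contig2.

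A few plasma and iron-related proteins were read as single unigenes or numbers. Hepcidin, the liver hormone that limits iron uptake, was represented by Unigene20901 with 233 fragments in the fasting library, against 9285 under normal feeding, 31437 under cold stress and 74596 under thermal stress, 44.5-fold below normal feeding (39.1 to 50.9). A second hepcidin, Unigene30277, was 3.98-fold below, and a further one, Unigene17625, was inside the range with 5952 fragments in the fasting library, against 10708, 3894 and 7090. Haptoglobin, which binds free hemoglobin, had 3993 fragments of Unigene14605 in the fasting library, against 44561, 20520 and 49771, with up to 86.3% of reads fitting several places. Fibrinogen beta chain, a clotting protein, had 349 CPM in the fasting library, against 1300, 1610 and 1414. Transferrin, the iron carrier of plasma, had 26129 in the fasting library, against 58847, 43022 and 54064, which is below the range by less than 2-fold. The warm temperature acclimation protein of Unigene7981, a heme-binding plasma protein in fish, lay inside the range, with 2718 CPM in the fasting library, against 2330, 1130 and 3860. Unigene30277, Unigene17625, Unigene7981 and haptoglobin were chosen after their values were seen.

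Among 9 marker numbers of hepatocytes, 2 lay above the range, 5 below and 2 inside, near the 23.3% above and 43.1% below of all numbers. Apolipoprotein A-I, the main protein of high-density lipoprotein, was above with 55457 CPM in the fasting library, against 22354 under normal feeding, 19328 under cold stress and 13886 under thermal stress. Antithrombin III had 1701 in the fasting library, against 848, 748 and 974. Apolipoprotein B and plasminogen were inside (above with TMM). In bulk tissue, fewer cells of a type and less RNA per cell cannot be told apart.

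**Figure D3:**
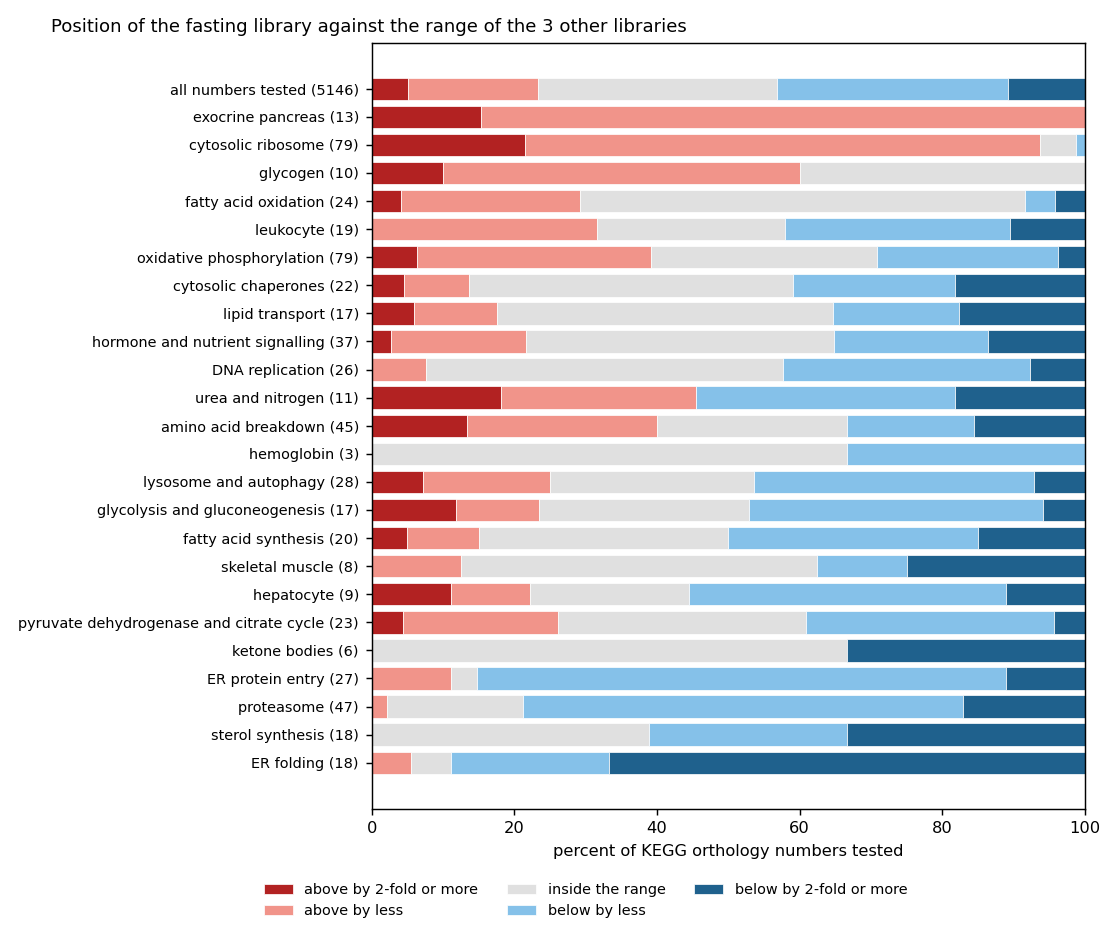
Bars give, for all 5146 KEGG orthology numbers and for each of the 24 lists (number tested in parentheses), the percent of numbers with the fasting value above the range of the 3 others, inside it or below it, with darker ends for 2-fold or more, using library totals. Lists run from the highest to the lowest median ratio: all 13 pancreatic enzymes and 74 of 79 ribosomal proteins lie above, and 16 of 18 ER folding and 37 of 47 proteasome numbers lie below.

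Cytosolic ribosomal proteins were higher in the fasting library almost throughout. Of 79 numbers, 74 lay above the range, 17 of them by 2-fold or more and none below by 2-fold, against 23.3% and 5.17% of all numbers. Their median log2 ratio was 1.01, and their sum was 143500 CPM in the fasting library, against 74615 under normal feeding, 73919 under cold stress and 92267 under thermal stress. Ribosomal protein L12 stood highest, with 698 in the fasting library, against 185, 152 and 189, 3.70-fold above thermal stress (3.56 to 3.84). Ribosomal protein S21 had 873 in the fasting library, against 248, 259 and 268. Ribosomal proteins S29 and L10a were among the 4 inside the range, and the sole number below, L23a, had up to 99.5% of reads fitting several places. With TMM 25 lay above by 2-fold or more.

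Exocrine pancreas enzymes formed the other block above the range. All 13 numbers lay above and 2 of them by 2-fold or more, against 23.3% and 5.17% of all numbers. With TMM 9 lay above by 2-fold or more, against 383 of all 5146 numbers. The sum of the 13 was 103998 CPM in the fasting library, against 41711 under normal feeding, 58797 under cold stress and 42815 under thermal stress. Trypsin had 51902 in the fasting library, against 19589, 27254 and 20347. Chymotrypsin had 6936 in the fasting library, against 1943, 3236 and 2228, and pancreatic elastase II had 7166, against 2625, 3327 and 3097. Cold stress was the second highest library for 12 of the 13. Without these enzymes in the library total, 315 numbers lay above and 480 below the range by 2-fold or more. The part of pancreas tissue in the ribosomal protein values and in the other results was not tested.

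Protein handling in the ER lay on the opposite side. Of 18 numbers of ER folding, 16 lay below the range, 12 of them by 2-fold or more, against 10.8% of all numbers, and the median log2 ratio was -2.05. Their sum was 3961 CPM in the fasting library, against 13803 under normal feeding, 7143 under cold stress and 28049 under thermal stress. The chaperone GRP94 (heat shock protein 90kDa beta) had 661 in the fasting library, against 4633, 1928 and 12877. Calreticulin, a chaperone for glycoproteins, had 155 in the fasting library, against 2036, 878 and 3306, 5.67-fold below cold stress (5.45 to 5.90). DNAJB11, a helper of ER chaperones, had 6.30 in the fasting library, against 118, 54.6 and 81.3, the longest distance of the list.

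The cold stress library changed the picture for GRP78 (heat shock 70kDa protein 5), the main ER chaperone. It had 37.3 CPM in the fasting library, against 1140 under normal feeding, 42.5 under cold stress and 3130 under thermal stress, so that cold stress came close to the fasting level, and the fasting value was inside the range with TMM. Only protein disulfide-isomerase A2 lay above the range. With TMM, 9 of the 12 stayed below by 2-fold, while protein disulfide-isomerases A5 and A6 and activating transcription factor 6, a sensor of unfolded protein, did not.

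Of 27 numbers of protein entry into the ER, 23 lay below the range, against 43.1% of all numbers, but 3 by 2-fold or more (1 with TMM), near the 10.8% of all numbers. The translocation protein SEC62 was the farthest, with 20.4 CPM in the fasting library, against 130 under normal feeding, 166 under cold stress and 105.1 under thermal stress. The summed level of the list did not follow, with 5282 in the fasting library, against 6707, 5192 and 6457. Of 47 proteasome numbers, 37 lay below and 8 by 2-fold or more (6 with TMM), against 43.1% and 10.8% of all numbers. The lid subunit N12 had 9.22 in the fasting library, against 57.7, 57.3 and 34.6, 3.75-fold below thermal stress (3.17 to 4.46).

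Other routes of protein breakdown were split. Of 28 numbers of lysosome and autophagy, 2 lay above by 2-fold or more and 2 below, near the 5.17% and 10.8% of all numbers. Cathepsin F, a lysosomal protease, had 5356 CPM in the fasting library, against 1365 under normal feeding, 1732 under cold stress and 1423 under thermal stress, 3.09-fold above the nearest (3.05 to 3.13). Cathepsin L had 432 in the fasting library, against 1026, 4938 and 1657. The number for GABARAP, which coats autophagosomes, was below with 39.7, against 106, 133 and 113. Beclin 1 and the autophagy proteins 5 and 7 were inside the range (5 and 7 above it with TMM).

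**Figure D4:**
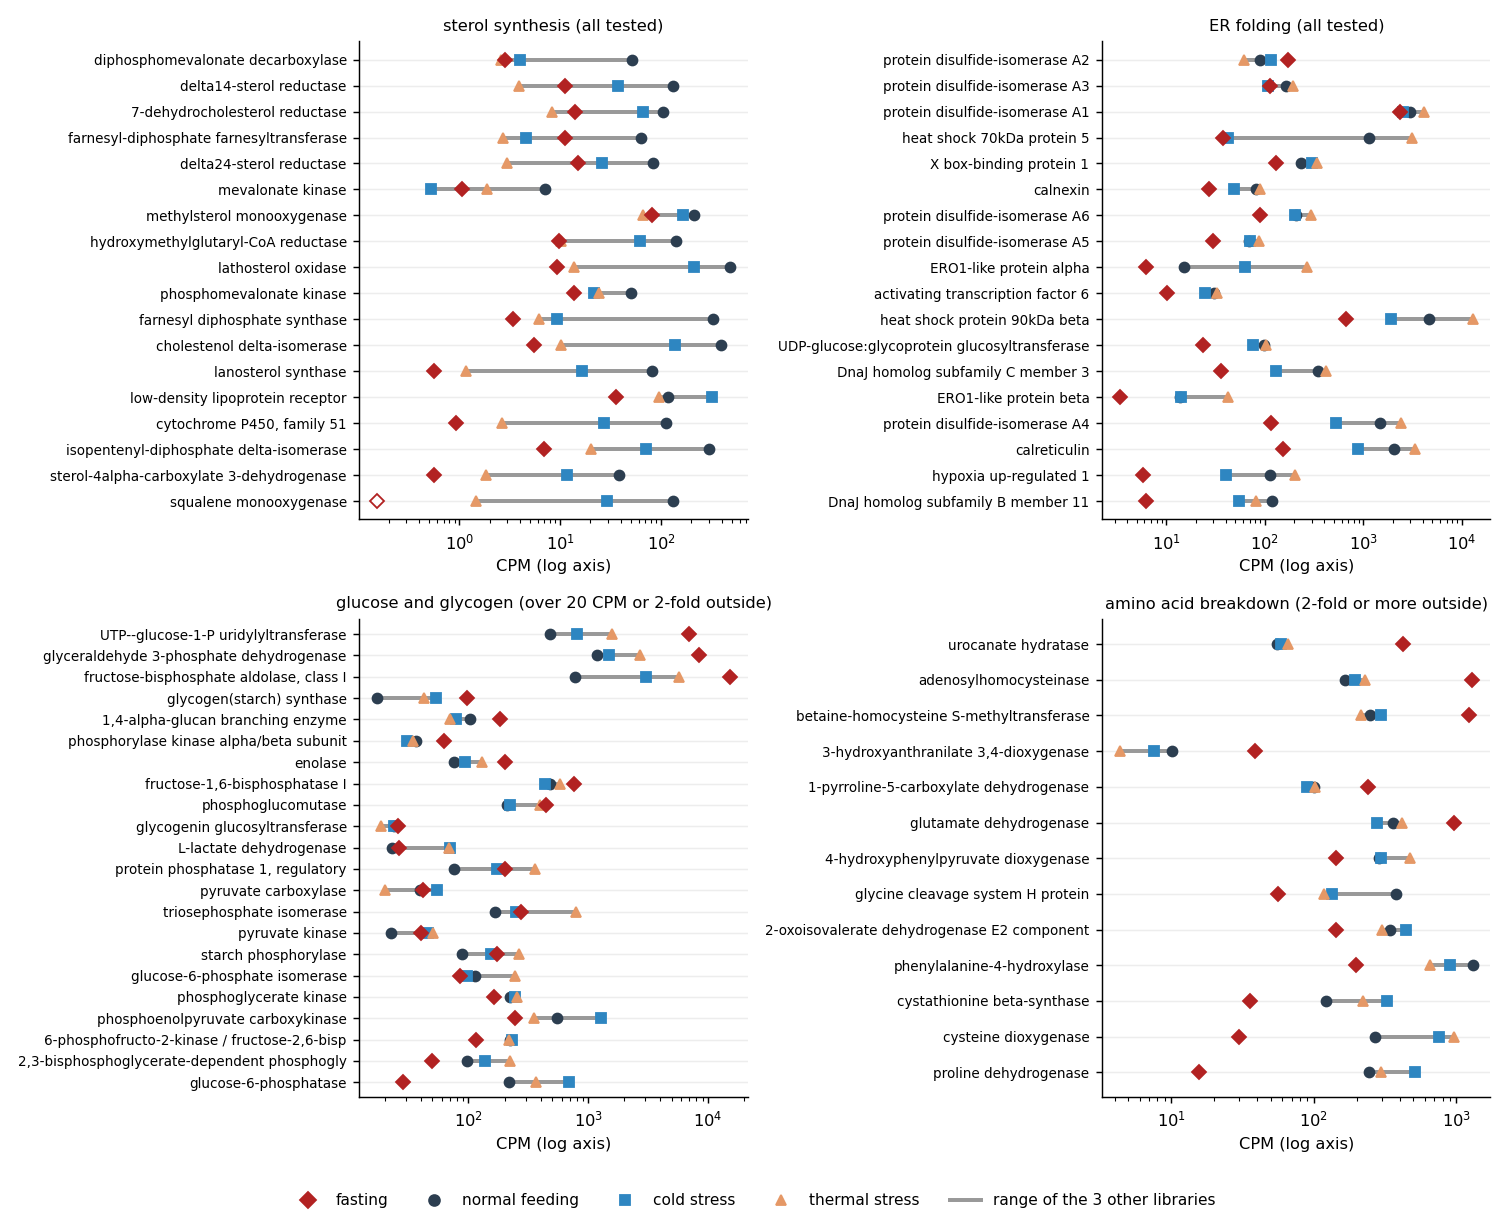
CPM (log axis) in each library for sterol synthesis and ER folding (all numbers tested), for glucose and glycogen metabolism (numbers over 20 CPM in the fasting library, or outside by 2-fold) and for amino acid breakdown (outside by 2-fold). Diamonds mark fasting, circles normal feeding, squares cold stress and triangles thermal stress. Grey lines mark the range of the 3 others and open symbols the level of 3 fragments. Fasting lies below every other library by 2-fold or more for 6 of 18 sterol synthesis numbers and for 12 ER folding genes.

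Of 18 numbers of sterol synthesis, 11 lay below the range and 6 by 2-fold or more (5 with TMM, without lanosterol synthase), against 43.1% and 10.8% of all numbers, none lay above, and the median log2 ratio was -1.99. The sum was 224 CPM in the fasting library, against 2828 under normal feeding, 1221 under cold stress and 276 under thermal stress. In this sum, thermal stress was thus close to fasting and far from normal feeding. Single enzymes of the fasting library lay well below thermal stress or well above it. Squalene monooxygenase had 0 fragments in the fasting library, against 131, 28.9 and 1.45 CPM in the others, at least 9.45-fold lower than thermal stress. Isopentenyl-diphosphate isomerase had 6.96 in the fasting library, against 299, 70.9 and 20.3. HMG-CoA reductase, the rate-limiting enzyme, had 9.68 in the fasting library, against 140, 62.2 and 10.2, so that the fasting value was within 1.05-fold of thermal stress (inside the range with TMM).

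Ketone body and acetyl-CoA enzymes that share substrates with sterols lay nearby. Hydroxymethylglutaryl-CoA synthase had 6.55 CPM in the fasting library, against 469 under normal feeding, 219 under cold stress and 14.2 under thermal stress. Acetoacetyl-CoA synthetase, which reactivates acetoacetate, had 1.79 in the fasting library, against 85.4, 33.3 and 6.31. For both, thermal stress was again the nearest library. The other 4 ketone body numbers were inside the range, among them 3-hydroxybutyrate dehydrogenase with 29.7 in the fasting library, against 36.1, 21.3 and 19.7.

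Of 20 numbers of fatty acid synthesis, 10 lay below the range and 3 of them by 2-fold or more, near the 43.1% and 10.8% of all numbers, and 1 lay above by 2-fold or more. 6-phosphogluconate dehydrogenase, which supplies NADPH, had 11.42 CPM in the fasting library, against 132 under normal feeding, 72.4 under cold stress and 76.7 under thermal stress, 6.34-fold below (5.49 to 7.34). ATP citrate lyase had 18.7 in the fasting library, against 139, 120 and 44.6. Glucose-6-phosphate dehydrogenase was 2.13-fold below normal feeding and came within 2-fold with TMM.

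The place of fatty acid oxidation depended on scaling: of 24 numbers, 15 lay inside the range, 7 above and 2 below with library totals, against 23.3% above and 43.1% below of all numbers, while 16 lay above with TMM, against 1641 of all 5146 numbers. Carnitine palmitoyltransferase 1, which admits fatty acids to mitochondria, had 41.9 CPM in the fasting library, against 18.5 under normal feeding and 21.8 under thermal stress, but was exceeded by cold stress, with up to 99.1% of reads fitting several places. Long-chain acyl-CoA dehydrogenase had 76.9 in the fasting library, against 64.7, 50.7 and 16.9. The peroxisomal bifunctional enzyme was the sole number above by 2-fold or more, with 54.9, against 21.2, 9.46 and 8.15. Long-chain acyl-CoA synthetase was below, with 30.9, against 73.3, 249 and 80.2.

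Lipid transport held apolipoproteins on opposite sides, as given above. Lipoprotein lipase, which frees fatty acids from circulating fat, had 27.2 CPM in the fasting library, against 153 under normal feeding, 340 under cold stress and 322 under thermal stress. Microsomal triglyceride transfer protein, which loads lipoproteins, had 35.9 in the fasting library, against 162.8, 209.4 and 95.7. Adipose triglyceride lipase, which opens fat stores, was low as single unigenes chosen after their values were seen, with 4 fragments of CL3383.Contig1 in the fasting library, against 83, 387 and 373, and 12 of CL143.Contig2, against 94, 548 and 387. Up to 86.8% and 78.5% of the reads on these unigenes fitted several places.

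Glucose metabolism was split by enzyme. Of 17 numbers of glycolysis and gluconeogenesis, 4 lay above the range, 8 below and 5 inside, near the 23.3% above and 43.1% below of all numbers. By 2-fold or more, 2 lay above and 1 below, against 5.17% and 10.8% of all numbers. Fructose-bisphosphate aldolase had 15291 CPM in the fasting library, against 783 under normal feeding, 3065 under cold stress and 5715 under thermal stress, 2.68-fold above thermal stress. Glyceraldehyde 3-phosphate dehydrogenase had 8376 in the fasting library, against 1190, 1505 and 2696, 3.11-fold above thermal stress. Both enzymes work in glycolysis and in gluconeogenesis, and the 3 others differed widely among themselves. Glucose-6-phosphatase, which releases free glucose, was 7.74-fold below the range (7.08 to 8.48), with 28.2 in the fasting library, against 218, 691 and 367. Phosphoenolpyruvate carboxykinase, the entry step of gluconeogenesis, had 243 in the fasting library, against 544, 1290 and 354, below the range by 1.46-fold.

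Glycogen metabolism lay above the range or inside it. Of 10 numbers, 6 lay above the range, 1 of them by 2-fold or more (3 with TMM), against 23.3% and 5.17% of all numbers, and none below, with a median log2 ratio of 0.89. UTP-glucose-1-phosphate uridylyltransferase, which makes the glucose donor for glycogen, had 6892 CPM in the fasting library, against 476 under normal feeding, 806 under cold stress and 1574 under thermal stress, 4.38-fold above thermal stress (4.32 to 4.44). Glycogen synthase had 97.8 in the fasting library, against 17.3, 53.1 and 42.4. Glycogen phosphorylase could not be read from its number, in which the unigene with the most fragments was a reticulon.

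Mitochondrial energy genes showed few departures of 2-fold or more, beside 5.17% above and 10.8% below of all numbers. Of 23 numbers of pyruvate dehydrogenase and the citrate cycle, dihydrolipoamide dehydrogenase was the sole one above by 2-fold or more, with 157 CPM in the fasting library, against 58.7 under normal feeding, 65.0 under cold stress and 60.9 under thermal stress. The number of citrate synthase was below, but 73.2% of its fragments came from a transcript like canopy-1. Pyruvate dehydrogenase E1 alpha, which was 5.68-fold lower than under normal feeding, lay inside the range, with 32.1 in the fasting library, against 182, 127 and 27.9.

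Of 79 numbers of oxidative phosphorylation, 31 lay above, 23 below and 25 inside (40 above with TMM), against 23.3% above and 43.1% below of all numbers. The 5 above by 2-fold or more, a share near the 5.17% of all numbers, were all subunits of ATP synthase, such as subunit c with 693 CPM in the fasting library, against 257 under normal feeding, 294 under cold stress and 241 under thermal stress. The 3 below were cytochrome c, with 7.94 against 78.9, 223 and 104, cytochrome c oxidase subunit 6b, with 59.0 against 143, 357 and 785, and cytochrome b, with 39.6 against 176, 157 and 156. For the last, up to 99.5% of reads fitted several places.

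Hormone and nutrient signalling had 37 numbers, with 1 above and 5 below by 2-fold or more, near the 5.17% and 10.8% of all numbers. Suppressor of cytokine signaling 3, a brake on cytokine and leptin receptors, had 22.02 CPM in the fasting library, against 109 under normal feeding, 186 under cold stress and 182 under thermal stress. DDIT4, an inhibitor of mTOR that cell stress induces, had 7.12 in the fasting library, against 21.1, 698 and 1117. The glucocorticoid receptor was above by less than 2-fold, with 33.5 in the fasting library, against 17.4, 11.2 and 8.26. Insulin-like growth factor 1, the liver's growth signal, was inside the range, with 595 against 717, 694 and 575.

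Leptin a (Unigene17773) and insulin-like growth factor-binding protein 1, both chosen after their values were seen, were lowest in the fasting library. Leptin a had 27 fragments in the fasting library, against 254 under normal feeding, 313 under cold stress and 954 under thermal stress, 10.5-fold below (7.05 to 16.2). The binding protein (CL1693.Contig1) had 614 in the fasting library, against 1169, 28268 and 4665. In both, the highest value was that of a stress library.

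Markers of other tissues gave small counts, beside 10.8% of all numbers below by 2-fold or more. Of 8 skeletal muscle numbers, 2 lay below the range by 2-fold or more, and the one defined as skeletal troponin C drew 65.4% of its fragments from a calumenin transcript. Of 19 leukocyte numbers, 6 lay above, 8 below and 5 inside, against 23.3% above and 43.1% below of all numbers. By 2-fold or more, 0 lay above and 2 below, of which CD300 came within 2-fold with TMM. DNA replication had 2 of 26 below by 2-fold or more (1 with TMM), 1 of them a number led by a coatomer transcript. Cytosolic chaperones had 1 of 22 above and 4 below by 2-fold or more (2 below with TMM, without DnaJ A1 and A2), against 5.17% and 10.8% of all numbers. The one above was the chaperonin subunit TCP1 alpha with 345 CPM in the fasting library, against 65.2 under normal feeding, 112 under cold stress and 151 under thermal stress. Among the 4 below was GroEL (HSP60), with 7.99 against 37.3, 39.9 and 91.6. In animals GroEL (HSP60) is mitochondrial, so this list is not purely cytosolic.

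A comparison with normal feeding alone gives a larger set of genes. Normal feeding is part of the range, so this set holds by rule every number outside the range by 2-fold or more. In the fasting library, 500 numbers (9.72%) were 2-fold or more higher than under normal feeding. Of these, 266 were outside the range by 2-fold or more, 170 (34.0%) were outside by less, and 64 (12.8%) were inside it. A further 1121 numbers (21.8%) were 2-fold or more lower, of which 554 (49.4%) were outside by 2-fold or more, 461 (41.1%) outside by less and 106 (9.46%) inside. Most numbers in both directions thus lay outside the range, which choosing them by their distance from normal feeding favored. Of all numbers, which were not so chosen, 33.5% lay inside it, so the shares are not alike in kind. Of the 64, the cold stress library reached the fasting value in 44 and the thermal stress library in 33. Of the 106, cold stress reached it in 46 and thermal stress in 71.

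**Figure D5:**
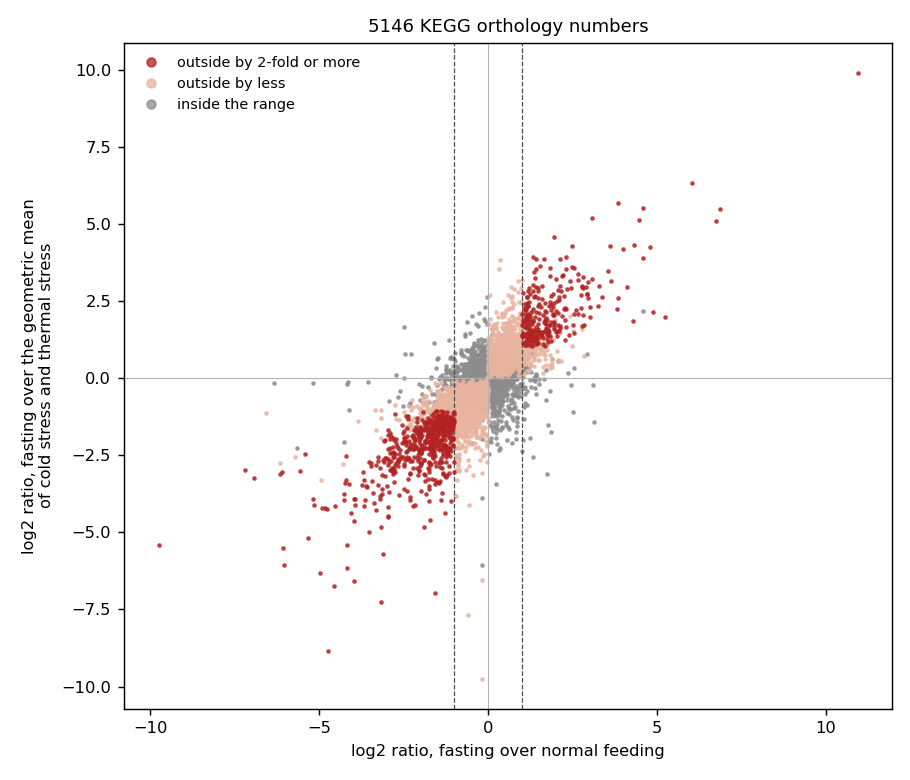
Each point is 1 of 5146 KEGG orthology numbers, with the log2 ratio of fasting over normal feeding on the x axis and of fasting over the geometric mean of cold and thermal stress on the y axis, values under 3 fragments being set to 3. Dashed lines mark 2-fold against normal feeding; of the 1621 numbers beyond them, 820 are outside the range by 2-fold or more (red) and 170 lie inside it (grey).

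Among the numbers inside the range, those farthest above normal feeding after estrogen receptor alpha included a muscle gene and a heat shock gene. Fast skeletal troponin I had 7.63 CPM in the fasting library, against 0.857 under normal feeding, 17.8 under cold stress and 23.0 under thermal stress. Heat shock protein 27 had 7.83 in the fasting library, against 1.37, 3.82 and 72.1. Carbonyl reductase had 53.8 in the fasting library, against 12.7, 22.6 and 58.5. In these, normal feeding was the low library, and a stress library exceeded the fasting one.

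Of the 6 farthest below normal feeding but inside the range, 5 were sterol synthesis enzymes. Diphosphomevalonate decarboxylase had 2.87 CPM in the fasting library, against 51.6 under normal feeding, 3.995 under cold stress and 2.62 under thermal stress. The delta14-sterol reductase had 11.2 in the fasting library, against 131, 37.1 and 3.91. Squalene synthase had 11.3 in the fasting library, against 63.1, 4.64 and 2.74. All of these had thermal stress below the fasting value, and squalene synthase had cold stress below it too.

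Several features of the unigenes outside the range were not used to choose them. The 1774 unigenes above by 2-fold or more had a median length of 734.5 bp and a median GC content of 47.8%, and the 4055 below had 677 bp and 45.3%, against 582 bp and 47.1% for those inside. A KEGG orthology number was given to 53.7% of those above and 47.4% of those below, against 45.01% of those inside. More than 50% of reads fitted several places in 19.5% of those above and 19.01% of those below, against 12.3% of those inside. Of those above, 442 (24.9%) were assembled from contigs of the fasting library only, against 13 (0.321%) of those below and 193 (1.35%) of those inside. On the other side, 53.4% of those below had any contig of the fasting library, against 98.1% of those above and 86.95% of those inside. A unigene assembled from 1 library tends to have few fragments in the others, and one assembled without a library tends to have few in it. The part of assembly in these counts, above or below, was not tested.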

How the data were processed

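Liver mRNA was sequenced as paired-end reads on an Illumina HiSeq, with 1 library per condition. The authors assembled the reads without a genome (their text names both SOAPdenovo and Trinity) into 57216 unigenes with a median length of 402 bp. Which programs aligned and counted the reads is not given in the sources used here. The deposited counts are raw fragments per unigene without normalization. The deposited FPKM values are these counts scaled by unigene length and by library total, which a recomputation matched within rounding. Deposited coverage tables give placed reads, as counts of those fitting 1 or several places, and the percent GC of each unigene. Columns of the authors' own comparisons hold fold changes and p-values and were not used. Per-sample columns of other samples numbered 0.

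Fragments were summed by the deposited KEGG orthology numbers and divided by library totals. Numbers or unigenes with a mean of at least 10 fragments over the 4 libraries were tested. A fasting value outside the range was called at 2-fold beyond the nearest library, with an exact (Clopper-Pearson) 95% interval of that ratio, which covers counting error only, since PCR reads are not independent molecules. A fold against a count of 0 used 3 fragments. The edgeR quasi-likelihood test used library totals and Benjamini-Hochberg adjustment, and p-values measure only the spread between these libraries. The test itself gives no SE. Each SE printed here is the absolute log2 fold change divided by the square root of the test's F statistic. In simulated data for the fit over 5146 numbers, 50 of 50 numbers were recovered at a log2 change of 4 and 49 of 50 at 3. At -3, 46 of 50 were recovered, and at -4, 50 of 50, while 10 of 4946 unchanged ones were called. These rates hold for the simulated spread, and whether they hold for the real libraries was not tested. The real fit called 4 numbers higher and 2 lower, although 52 lay above the range and 124 below it by 4-fold or more. Argininosuccinate synthase, at a log2 distance of -5.265, was not called.

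Genes to name were picked from the 12 numbers farthest on each side with a mean of at least 100 fragments and the 8 unigenes farthest on each side. Others came from up to 6 numbers on each side in each of 24 lists and from enzymes named for the study's pathways. The 6 numbers on each side farthest from normal feeding inside the range were also used. Not all of these are described here. The members and lists were chosen with earlier results of these data known. Lists were matched on the definition of each number. Alternatives were TMM, DESeq2's size factors and test, library totals without digestive enzymes or egg proteins, other minimums and distances, and leaving out each of the 3 non-fasting libraries. Python 3.11.15 (numpy 2.4.6, pandas 2.3.3, scipy 1.17.1, matplotlib 3.10.9) and R 4.3.3 (edgeR 4.0.16, DESeq2 1.42.0) were used.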

Additional observations from a re-analysis of the deposited data

How the results depend on the processing

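No paired analysis was possible because each condition has 1 library. The 820 numbers outside the range by 2-fold or more became 777 with TMM, 779 with DESeq2's size factors, 795 without digestive enzymes, 810 without egg protein unigenes (added after seeing the data), 875 with no minimum and 606 with a mean of at least 100 fragments. At any distance they were 3420, and at 4-fold 176. Leaving out a library gave 985 to 1207. The 5829 unigenes became 5597 with TMM, 5631 with DESeq2's size factors and 5698 without digestive enzymes, but 9553 with no minimum, 1772 with a mean of at least 100 fragments, 20141 at any distance and 1375 at 4-fold. Leaving out a library gave 7591 to 8966. The 6 numbers that edgeR called became 3 with TMM, 326 with DESeq2 and 7 with no minimum, and 21 to 51 on leaving out a library. The 5 unigenes became 3 with TMM, 668 with DESeq2 (whose adjusted p was not given for 15342) and 14 with no minimum, and 170 to 457 on leaving out a library. Of the 112 numbers picked by distance, 102 stayed 2-fold or more outside with TMM, 100 with DESeq2's size factors and 106 without digestive enzymes. All kept their side, but their choice at 2-fold or more outside fixed this in advance. Depth limits values near 0.154 to 0.176 CPM. The cause of these movements was not tested.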
